A study of Arabidopsis thaliana with 12 samples.

Results

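AGL54 (AT5G27090), IAA31 (AT3G17600), TCP15 (AT1G69690) and AT1G44830 encode developmental regulators of transcription, 1 each from the MADS-box, AUX/IAA, TCP and ERF families. A gene was taken if a probe named it and no other gene, and its probe was chosen by mean intensity over all 12 columns where there were several; each gene had exactly 1. The array names 691 genes in this way and holds 3439 probes in all. The 4 genes were grouped with earlier results of these data known. Their values below are therefore a description, and an adjusted p printed beside one is the value of the fit over all probes, not independent evidence.

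Both groups are Arabidopsis thaliana kept in darkness overnight, and the RNA was total RNA on a single-channel array. WT is ecotype Columbia 0, and prors1 is, per the labels, a mutant lacking prolyl-tRNA synthetase, the enzyme that charges proline onto its transfer RNA. Each group has 6 columns of values. The source label of all 12 samples reads WT, and samples were therefore grouped by title. PRORS1 itself was not analysed here, so its level does not check this grouping. The labels give no age, tissue, allele or pooling. Of 37 marker genes for flower, root, leaf, shoot apex and other tissues, 1 had a probe of its own, so the tissue was not checked.

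MADS-box proteins bind DNA as dimers, and members of the family specify floral organs and flowering time. AGL54 belongs to the type I branch, known mainly from the female gametophyte, embryo and endosperm. AUX/IAA proteins repress auxin response factors and are degraded through TIR1/AFB receptors when auxin rises. IAA31 falls in a subgroup with IAA20 and IAA30 in which the degradation motif is missing or incomplete. TCP proteins regulate cell proliferation and growth, and TCP15 is a class I member that acts with TCP14 in internode elongation. ERF proteins carry an AP2 DNA-binding domain, and many act in ethylene and stress responses.

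Columns 1 and 2, 3 and 4, and 5 and 6 of a group resembled each other as repeat readings and were averaged. This leaves 3 averaged pairs per group, called arrays below. The pairing was inferred from the values, and the labels do not say that 2 columns share an array. Over all probes the Pearson correlation within a pair was 0.902 to 0.915 in WT, where other columns reached 0.840 to 0.878. In prors1 it was 0.951 to 0.961, where other columns reached 0.881 to 0.895. Whether separate plants were used is not in the labels, and the spread between arrays on which every p-value rests may be technical. The median intensity above 0 was 0.224 to 0.289 in WT columns and 0.407 to 0.520 in prors1 columns, so most probes read higher in prors1 as deposited. Intensities are on a deposited linear scale ending at 100, whose reference is unknown. Folds are given after quantile normalization, as log2 of prors1 over WT, and are relative to the other probes. In bulk RNA, fewer cells of a type and less RNA per cell cannot be told apart.

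Among the 4 genes, 2 were higher in prors1 (AGL54 and AT1G44830), 1 was lower (IAA31) and TCP15 did not pass the test at a limma adjusted p under 0.05. Over the 2908 tested probes the same test called 26.3%, with 12.8% higher and 13.5% lower. All 4 genes were above 0 in all 12 columns, so no value of theirs was missing. The median log2 fold over all tested probes was -0.06.

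**Figure D1:**
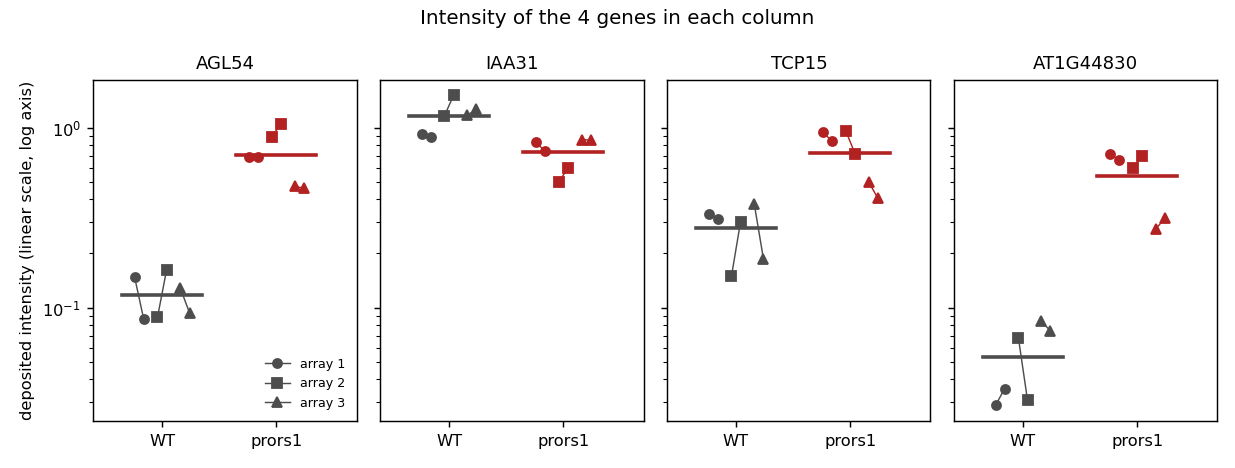
Deposited intensity (log axis) of the 4 genes in each of the 12 columns; the 2 columns of an array share a marker and are joined by a thin line, and horizontal bars are group means over 3 arrays. The prors1 columns of AGL54, TCP15 and AT1G44830 lie above all WT columns, as they do for 39.6% of tested probes, and those of IAA31 lie below all WT columns, as for 3.54%.

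AT1G44830, the ERF gene, had the largest difference of the 4. Its intensity was 0.0321, 0.0492 and 0.0791 on the WT arrays and 0.689, 0.645 and 0.294 on the prors1 arrays. All prors1 arrays lay above all WT arrays, as for 52.5% of tested probes in deposited intensity. The lowest prors1 array was 3.71 times the highest WT array. Mean intensity was 0.0535 ± 0.024 (SD, n = 3) in WT and 0.542 ± 0.22 in prors1, a ratio of 10.1. After quantile normalization the gene rose 4.98-fold (log2 fold 2.32 ± 0.39, SE, 95% interval 1.42 to 3.21, limma adjusted p = 0.00693). Of the 2908 probes, 32 had a larger log2 fold.

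The WT level of AT1G44830 lay near the bottom of the scale. It ranked between the 3.14th and the 13.4th percentile of the probes above 0 in the WT columns, and between the 30.1th and the 69.9th in the prors1 columns. The 5th percentile itself was at an intensity of 0.0379 to 0.0472 in WT and of 0.0943 to 0.128 in prors1. When each column was aligned to the others by a straight line, the fitted constant was negative in all WT columns (-0.11 to -0.051) and positive in all prors1 columns (0.043 to 0.13). The constant was taken off and each column was divided by its fitted slope. The log2 fold of AT1G44830 was then 1.60 ± 0.34 (limma adjusted p = 0.0140). With a pseudocount of 0.0595 it was 1.55 ± 0.27. The direction and the call held under both, while the fold shrank by more than 1.5 times.

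AGL54, the type I MADS-box gene, was the second to rise. The WT arrays read 0.117, 0.126 and 0.111, and the prors1 arrays 0.685, 0.973 and 0.467. The WT arrays lay close together. All prors1 arrays lay above them, as for 52.5% of tested probes, and the lowest was 3.72 times the highest WT array. Single WT columns spread more widely than these averages, from 0.0861 to 0.163. The means were 0.118 ± 0.0074 (SD, n = 3) and 0.708 ± 0.25. The normalized log2 fold was 1.66 ± 0.25 (SE, 95% interval 1.08 to 2.24, limma adjusted p = 0.00517), a 3.16-fold rise, and 118 probes had a larger one. As deposited, without further scaling, the log2 fold was 2.57. It was 1.48 ± 0.25 after the straight-line alignment and 1.33 ± 0.22 with the pseudocount (limma adjusted p = 0.00625 and 0.00297). AGL54 ranked at percentiles 12.8 to 29.8 of the WT columns and 56.9 to 80.1 of the prors1 columns.

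AGL54 moved against the probes numbered next to it. Within 50 probe numbers lay 31 tested probes, with a median log2 fold of -0.68, of which 12 were called lower and 1 higher, and none of the 31 had a fold as large as that of AGL54. After a running median along the probe numbers was taken off, AGL54 was 4.28-fold higher in prors1. Medians around the other genes were nearer 0, at -0.15 for IAA31, -0.09 for TCP15 and -0.01 for AT1G44830.

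IAA31, the AUX/IAA gene, fell in prors1. Its intensity was 0.905, 1.34 and 1.22 on the WT arrays and 0.785, 0.548 and 0.856 on the prors1 arrays. The groups did not overlap, but the lowest WT array was only 1.06 times the highest prors1 array. Mean intensity was 1.15 ± 0.22 (SD, n = 3) in WT and 0.730 ± 0.16 in prors1, so WT was 1.58 times prors1. Over all tested probes, 5.47% had prors1 arrays all below the WT arrays in deposited intensity and 52.5% had them all above.

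On the normalized scale IAA31 fell by 1.15 ± 0.33 (SE, 95% interval -1.90 to -0.40, limma adjusted p = 0.0358), which is 2.22-fold. Within its columns the gene went from the 88.1th to 92.7th percentile in WT to the 49.3th to 82.7th in prors1. Of the 3 calls among these genes, this one had the highest adjusted p. As deposited the log2 fold was -0.67 with a limma adjusted p of 0.0936. The call was also lost when 1 array was left out, with adjusted p = 0.0618, 0.0650 and 0.101 for WT arrays 1, 2 and 3, and 0.0767 and 0.0929 for prors1 arrays 1 and 2. It held without prors1 array 3 (adjusted p = 0.0309).

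TCP15, the class I TCP gene, gave different answers before and after quantile normalization. The WT arrays read 0.321, 0.225 and 0.281, and the prors1 arrays 0.892, 0.838 and 0.452. In deposited intensity all prors1 arrays lay above all WT arrays, as they did for 52.5% of tested probes. The means were 0.275 ± 0.048 (SD, n = 3) and 0.728 ± 0.24, a ratio of 2.64. After quantile normalization the levels were -1.17, -1.91 and -1.35 (log2) on the WT arrays and -0.49, -0.80 and -1.39 on the prors1 arrays. The groups then overlapped, since prors1 array 3 lay below WT arrays 1 and 3.

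The normalized log2 fold of TCP15 was 0.59 ± 0.32 (SE, limma adjusted p = 0.200), and its 95% interval of -0.14 to 1.31 holds 0 as well as log2 folds above 1. As deposited it was called higher, at 1.40 ± 0.34 (adjusted p = 0.00981), where 43.0% of all tested probes were called higher. The median log2 fold of all tested probes was then 0.77, and that of the 363 other probes in the same eighth of mean intensity was 0.78.

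**Figure D2:**
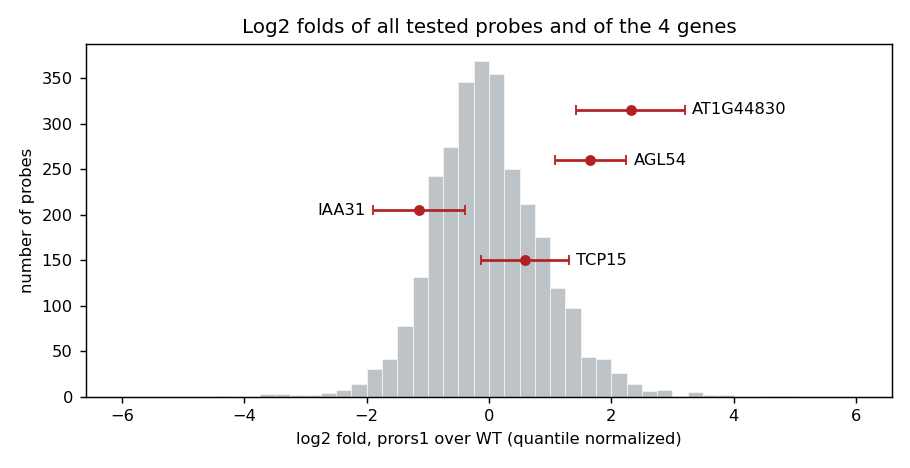
Histogram of the quantile-normalized log2 fold (prors1 over WT) of all tested probes, with the log2 folds of the 4 genes as red points and their 95% intervals as bars; the height of a point has no meaning. AT1G44830 (2.32) and AGL54 (1.66) lie in the right tail, IAA31 (-1.15) to the left of 0, and the interval of TCP15 (0.59) includes 0.

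The folds were also set beside those of probes of like mean intensity, taken over the columns of both groups together. The prors1 values that enter a fold therefore also set the eighth, and the probes were not matched on WT level. The WT mean of AT1G44830 was 0.0535, while its eighth spans 0.237 to 0.298. For AGL54 these were 0.118 and 0.381 to 0.484. The counts below therefore cannot show how a fold ranks among probes equally dim in WT. Of the 363 other tested probes in the eighth of mean intensity that holds AT1G44830, 3 had a larger log2 fold. For AGL54, 10 of 362 did. For TCP15, 96 of 363 did. For IAA31, 26 of 362 had a lower log2 fold. These eighths had median normalized log2 folds of -0.02 to 0.08.

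Prors1 array 3 was the one nearest to WT for each of the 4 genes, being the lowest prors1 array for AGL54, TCP15 and AT1G44830 and the highest for IAA31. Without it the log2 folds were 1.85, 0.83, 2.65 and -1.41 in that order; leaving out the array nearest to WT enlarges a fold by construction. Among the 754 probes called changed and measured on all arrays, prors1 array 3 was the nearest to the WT mean in 45.4%, array 1 in 30.4% and array 2 in 24.3%.

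The agreement between the 2 columns of an array varied with the gene. For AT1G44830 the columns of WT array 2 read 0.0679 and 0.0305, a log2 difference of 1.16. TCP15 had log2 differences of 1.01 between the columns of WT array 2 and of WT array 3, and AGL54 of 0.45 to 0.88 on the WT arrays. IAA31 had differences of 0.040 to 0.38 on the WT arrays and of 0.0094 to 0.24 on the prors1 arrays, with array 1 further apart in prors1 (0.17) than in WT (0.040). The columns of AT1G44830 on array 3 were also slightly further apart in prors1 (0.20) than in WT (0.18). On the prors1 arrays the largest difference among the 4 genes was 0.42, for TCP15 on array 2. Over all probes, the median absolute log2 difference between columns of an array was 0.235 to 0.248 in WT and 0.109 to 0.142 in prors1.

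Both AGL54 and IAA31 are also named by a second probe that lists close relatives, which the rule leaves out because it names several genes. These shared probes were looked at after their values were seen. The probe naming AGL54, AGL53 and AGL93 read 0.199, 0.264 and 0.180 on the WT arrays and 0.358, 0.270 and 0.192 on the prors1 arrays. The groups overlapped in deposited intensity. On the normalized scale the prors1 arrays (-2.72 to -2.09, log2) lay below the WT arrays (-1.93 to -1.65). The normalized log2 fold was -0.64 ± 0.25 (95% interval -1.20 to -0.07, limma adjusted p = 0.0890), against 1.66 for the probe of AGL54 alone. As deposited the shared probe had a log2 fold of 0.34.

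The probe naming IAA30, IAA31 and IAA20 went the other way from that of IAA31 alone. It read 0.749, 0.879 and 0.454 on the WT arrays and 1.47, 2.03 and 1.24 on the prors1 arrays. All prors1 arrays lay above all WT arrays in deposited intensity, as for 52.5% of tested probes. Single columns overlapped, with WT column 3 at 1.20 and prors1 column 6 at 1.07. The normalized log2 fold of this probe was 0.88 ± 0.23 (limma adjusted p = 0.0279). The call was lost under median scaling (log2 fold 0.38, adjusted p = 0.311), after the running median was taken off (0.62, adjusted p = 0.0543), and when any WT array or either of the first 2 prors1 arrays was omitted (adjusted p = 0.0514, 0.0546, 0.0827, 0.0702 and 0.0843).

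The difference in normalized level between a gene's own probe and its shared probe was taken on each array. For AGL54 it was -0.97 to -0.70 (log2) in WT and 1.12 to 1.94 in prors1. For IAA31 it was 0.31 to 1.18 in WT and -2.12 to -0.61 in prors1. Neither pair of ranges overlapped. Because the shared probes were picked out after their values were seen, these differences are a description with no test, and which transcripts each probe binds was not tested.

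**Figure D3:**
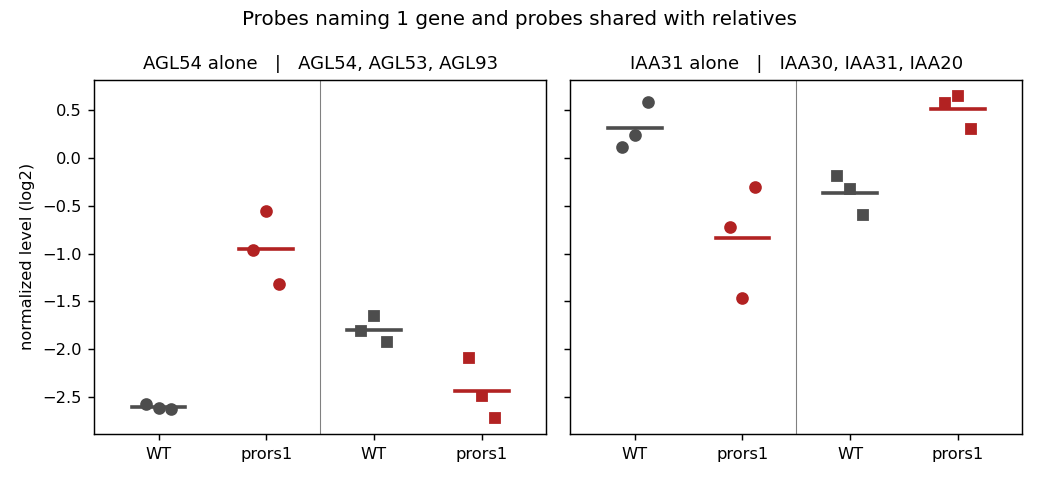
Quantile-normalized log2 level on the 3 arrays of each group for the probe naming AGL54 or IAA31 alone (circles) and for the probe shared with relatives (squares), with group means as bars. The AGL54 probe is higher in prors1 while its shared probe is lower, and the IAA31 probe is lower while its shared probe is higher.

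Few relatives of the 4 genes were found by a search of symbols and synonyms. The MADS-box list had 3 tested genes, of which AGL54 was higher and 0 were lower. AGL103 had intensities of 0.325 ± 0.071 (SD, n = 3) in WT and 0.635 ± 0.029 in prors1 and a normalized log2 fold of 0.20 ± 0.25 (limma adjusted p = 0.588). AGL26 had 0.251 ± 0.075 and 0.617 ± 0.087, with a log2 fold of 0.48 ± 0.27 (limma adjusted p = 0.211). The deposited values gave a call for both, with log2 folds of 1.0 (limma adjusted p = 0.0167) and 1.34 (0.00700). On that scale 43.0% of all tested probes were called higher, and the median log2 fold of all tested probes was 0.77.

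In the lists for auxin response, TCP and AP2/ERF genes, the sole tested member found with its own probe was IAA31, TCP15 and AT1G44830 respectively. AT1G44830 was placed in its list by hand, since its symbol and synonyms name no family. Relatives listed only under a locus name could not be found by this search. The probe naming YUC6 and YUC2, flavin monooxygenases of auxin synthesis, was listed at 0 in both columns of WT array 1. It had a log2 fold of 0.60 ± 0.37 over the other arrays (limma adjusted p = 0.271). A probe naming IAA30 and IAA20 without IAA31 was listed at 0 in 11 of 12 columns and was not tested. No further regulator of transcription was found by symbol.

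The genes whose normalized level over the 6 arrays was most like that of AGL54, out of 570 compared, were AT1G03810 (Pearson r = 0.990), AT2G44760 (0.986) and SRX, the gene of sulfiredoxin (0.984). For AT1G44830 they were AT1G03810 (0.969), SRX (0.960) and AT2G46220 (0.960). On this scale AGL54 and AT1G44830 share 2 of their 3 nearest genes, and each r includes the difference between the groups. The intensity of SRX was 0.0755 ± 0.0034 (SD, n = 3) in WT and 0.393 ± 0.095 in prors1. Its WT mean lay below the 25th percentile of every WT column (0.127 to 0.146). The normalized log2 fold of SRX was 1.37 ± 0.23 (SE, limma adjusted p = 0.00696).

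For TCP15 the most alike were AT5G11650 (r = 0.933), AT3G44810 (0.919) and AT1G13370 (0.904). For IAA31 they were AT3G51510 (0.994), AT4G26770 (0.969) and AT1G21730 (0.967). On the values as deposited the correlations with IAA31 became -0.10, -0.66 and 0.61, so the likeness to AT3G51510 and AT4G26770 was lost there and that to AT1G21730 was weaker. The correlations for the other 3 genes stayed at 0.965 or more as deposited, where most probes read higher in prors1, but the order of the nearest genes changed. For AGL54, AT1G03810, AT2G44760 and SRX then took places 1, 45 and 5 of 570. For AT1G44830, AT1G03810, SRX and AT2G46220 took places 17, 7 and 23, and for TCP15 the genes in the order above took places 1, 3 and 6.

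**Figure D4:**
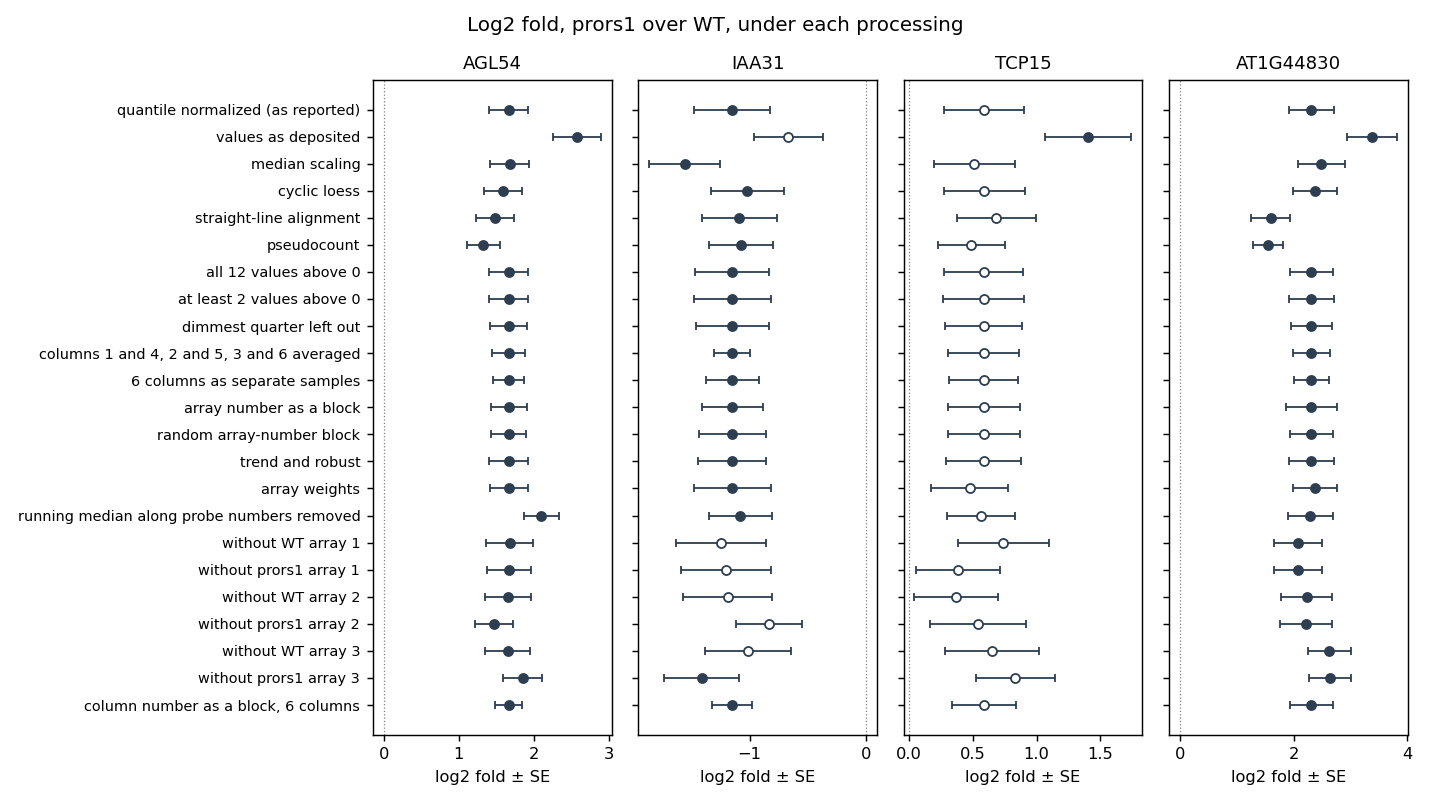
Log2 fold (prors1 over WT) of the 4 genes, ± SE, under each processing tried; filled points have a limma adjusted p under 0.05. AGL54 and AT1G44830 are filled throughout, IAA31 is open as deposited and without any of 5 arrays, and TCP15 is filled as deposited alone.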

How the data were processed

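Single-channel intensities of 3439 probes were deposited, 1 column for each of 12 samples. For these intensities, the scanner, background correction and scaling of the authors were not given in the sources used here. Members, lists and tests were chosen with earlier results of these data known. Groups and replicate numbers came from the titles. Values of 0 were set to missing, the rest were log2 transformed and quantile normalized with limma 3.58.1 (R 4.3.3), and columns 1 and 2, 3 and 4, and 5 and 6 of a group were averaged. A probe needed 4 or more of a group's 6 values above 0, in both groups; the 2908 such probes were tested with lmFit and eBayes, two-sided, group as the only term, Benjamini-Hochberg over all tested probes, threshold 0.05. The number of arrays limits the precision. Probes were named through the platform annotation, and symbols brought up to date with the TAIR10.1 table: 692 probes named 1 gene, 690 of them matched, 870 named several and 1877 had no gene listed. Named are the 4 genes, tested members of the family lists, and the 3 genes most correlated with each. The other-regulator list matched PRA1.B3 by its letters alone, and it was left out. Alternatives covered scaling, filters, averaging, blocks, weights, probe-number trends and omitted arrays. The fit was tested on simulated data.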

Additional observations from a re-analysis of the deposited data

How the results depend on the processing

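AGL54 (log2 fold 1.33 to 2.57) and AT1G44830 (1.55 to 3.38) kept direction and call in all 22 alternatives, with an array left out 1.47 to 1.85 and 2.08 to 2.65. IAA31 kept its direction in all 22 and its call in 16: it was -0.67 as deposited, not called, and -1.41 to -0.83 with 1 array left out. TCP15 stayed uncalled in 21 and was called as deposited, at 1.40. The probe shared by AGL54, AGL53 and AGL93 turned as deposited (0.34). It was called lower with columns 1 and 4, 2 and 5, and 3 and 6 averaged (limma adjusted p = 0.00533). The same call came with 6 columns as separate samples, without (0.00847) and with (0.00997) the column number as a block. Probes called changed numbered 764 (372 higher, 392 lower), and 1332 as deposited (1250 higher, 82 lower). They were 1482 with columns 1 and 4, 2 and 5, and 3 and 6 averaged, 1443 with 6 columns as separate samples, and 393 to 562 with 1 array left out. If 2 columns are readings of 1 array, counting or mixing them narrows the error by construction, and other causes were not tested. With the array number as a replicate block, AGL54, IAA31, TCP15 and AT1G44830 had adjusted p = 0.0120, 0.0275, 0.164 and 0.0193, and 840 probes were called. Deviations of same-numbered WT and prors1 arrays had correlations of 0.184, 0.080 and 0.231, and every array was closest to its namesake. Whether the arrays are paired was not tested, and the main fit left them unpaired. With the number of single columns as a replicate block, added after the data were seen, 1532 probes were called and no call among the 4 genes changed. Of the 4 genes, AT1G44830, dim in WT, was moved most by the straight-line alignment (to 1.60).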
